A study of Oryza sativa with 6 samples.

Results

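*OsIRO2* (*Os01g0952800*), *Os01g0647200* and *Os07g0142100* were 3 of the 925 genes with values in the deposited table of leaf expression in the rice mutant *Dap1* and WT. They were selected by identifier with their readout in this same comparison known, so their difference between the groups is given as a description without a test. The table annotates only *OsIRO2* to iron. It describes that gene as an Achaete-scute transcription factor related protein with the GO terms response to iron ion starvation and positive regulation of siderophore biosynthesis. *Os01g0647200* is described as a hypothetical conserved gene and *Os07g0142100* as a conserved hypothetical protein, and neither carries a symbol, a GO term or a KEGG class, so no function is assigned to them here. By their identifiers, the first 2 genes lie on chromosome 1 and *Os07g0142100* lies on chromosome 7.

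Iron is abundant in soil but poorly soluble, and grasses such as rice take it up by releasing mugineic acids, small chelators that are made from nicotianamine and return to the root as iron complexes. OsIRO2 is a basic helix-loop-helix (bHLH) transcription factor that is induced in roots and shoots when iron is short, and it switches on genes for the synthesis and uptake of these chelators. When iron is plentiful, plants store it in ferritin, a plastid protein shell, and such uptake regulators are little expressed.

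The leaves came from 3 WT samples of the *japonica* variety Zhonghua11 (ZH11) and 3 *Dap1* samples at the booting stage, described as biological replicates. *Dap1* is a single T-DNA insertion line of ZH11, with the T-DNA upstream of the homeobox gene *OsWUS*. Its mutant plants are hemizygous for the insertion, since no homozygotes were recovered, and both genotypes were grown in the field without a further treatment. *Dap1* plants headed later than WT, so genotype and day of sampling cannot be told apart, and neither leaf iron nor soil iron was analysed here.

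*OsWUS* (*Os04g0663600*, listed in the table as *WOX1*) matched the labels, with 0 counts in every WT library and 77, 100 and 105 counts in the *Dap1* libraries. The 925 rows held between 244181 and 314019 counts in the WT libraries and between 601642 and 666483 in the *Dap1* libraries. Relative library sizes, taken from the ratio of count to FPKM, lay between 0.862 and 1.11. FPKM is a fragment count corrected for transcript length and sequencing depth. All rows had been selected by the authors as differing between the groups. Of the 925 rows, 98.6% passed edgeR's quasi-likelihood test (adjusted p under 0.05, with the log2 fold change beyond 1 in size), 41.7% as lower and 56.9% as higher in *Dap1*. Passing this test therefore sets no gene apart from the rest of the table. Of the photosystem II proteins with a row, *PSBS2* had 2323, 1746 and 2063 WT counts, but *PsbR* had 13, 8 and 5 and *OsPsbR2* 1, 0 and 1. In a table of called genes only, the leaf label could not be checked.

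All 3 loci were expressed in each WT leaf library and were close to or at 0 in each *Dap1* library, with no overlap between WT and *Dap1*, which also held in this direction for 42.1% of all rows. The counts of *OsIRO2* were 114, 86 and 122 in WT against 2, 0 and 0 in *Dap1*. Relative to library size, the level averaged 108 ± 11.5 counts in WT and 0.70 ± 1.21 in *Dap1* (SD, n = 3 each). Where every library of a group has 3 counts or fewer, 3 counts per library were used as the floor, which covers counting error only and gives the fold change as a bound. Expression of the regulator was at least 36.4-fold lower in *Dap1*, a log2 ratio of -5.19 or below. In bulk leaves, fewer cells expressing a gene and less RNA per cell cannot be told apart.

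*Os07g0142100* was not detected in any *Dap1* library. Its counts were 131, 108 and 153 in WT against 0, 0 and 0 in *Dap1*. The scaled WT count was 132 ± 17.7 (SD, n = 3), and the level in *Dap1* was at least 44.4-fold lower, a log2 ratio of -5.47 or below. Among the 36 rows, or 3.89% of the table, in which every *Dap1* library had 3 counts or fewer, *Os07g0142100* had the highest scaled WT count and *OsIRO2* the second highest. The size of both bounds follows from these WT counts.

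*Os01g0647200* was the most abundant of the 3 loci in counts and the only one that was still counted in every *Dap1* library. Its counts were 555, 449 and 448 in WT against 12, 11 and 9 in *Dap1*. Scaled to library size, the level was 489 ± 39.5 in WT and 10.6 ± 2.04 in *Dap1* (SD, n = 3 each), which is 2.17% of the WT mean. Single *Dap1* libraries lay between 1.74% and 2.58% of it. The level was 46.1-fold lower in *Dap1*, a log2 ratio of -5.53. This value is not a bound, so it cannot be ranked against those of the other loci.

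**Figure D1:**
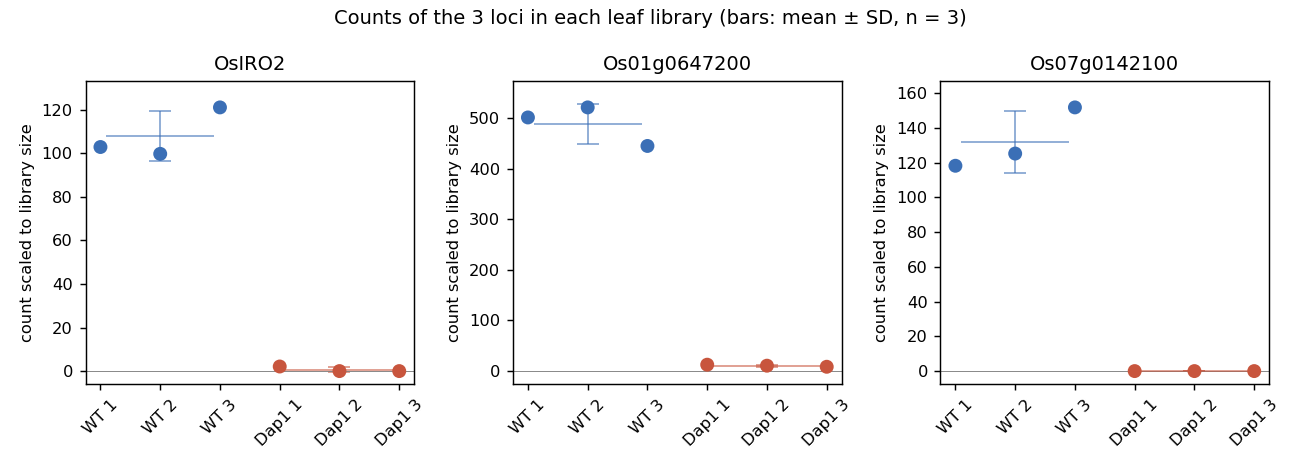
Count of each of the 3 loci, scaled to library size, in the 3 WT (blue) and 3 Dap1 (red) leaf libraries, with the mean and SD of each group as bars. OsIRO2 lies near 108 in WT and at 2.10, 0 and 0 in Dap1, Os01g0647200 lies between 8.52 and 12.6 in Dap1, and Os07g0142100 is at 0 in every Dap1 library.

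Within WT, the libraries spread by 10.7%, 8.08% and 13.5% of the mean for *OsIRO2*, *Os01g0647200* and *Os07g0142100* (coefficient of variation of the scaled count, n = 3). WT replicate 3 had the highest scaled count of *OsIRO2* (121) and *Os07g0142100* (152) and the lowest of *Os01g0647200* (445). All WT libraries stayed far above all *Dap1* libraries for each locus.

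Levels of different genes can be compared only per length, on the FPKM scale. *Os01g0647200* had 22.5, 15.0 and 18.1 FPKM in the WT libraries, a mean of 18.5 ± 3.74 (SD, n = 3), and *Os07g0142100* had 12.0, 12.7 and 15.4 FPKM, a mean of 13.4 ± 1.80 (SD, n = 3). *Os01g0647200* was the higher in each WT library, but the ranges over the libraries overlapped. *OsIRO2* was lower than both in every WT library, with 2.31, 2.25 and 2.72 FPKM and a mean of 2.43 ± 0.256 (SD, n = 3). In the *Dap1* libraries, the FPKM of *Os01g0647200* was 0.61, 0.25 and 0.20 and that of *OsIRO2* was 0.15, 0 and 0, while *Os07g0142100* was listed at 0 in each. At WT lengths, 3 counts in a *Dap1* library would be worth at most 0.0708 FPKM for *OsIRO2* and 0.321 FPKM for *Os07g0142100*.

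The length that the authors' pipeline assigned to each gene can be read from the scaled counts that make 1 FPKM. This was 44.5, 44.3 and 44.5 in WT for *OsIRO2* and 9.83 in every WT library for *Os07g0142100*. The length assigned to *OsIRO2* was thus 4.53 times that assigned to *Os07g0142100*. It is the length that the pipeline divided by, which need not be the full transcript length. For *Os01g0647200*, it was 22.3, 34.7 and 24.5 in WT against 20.7, 42.6 and 42.6 in *Dap1*. Its WT libraries differed 1.56-fold in assigned length, the widest spread among the 304 rows with at least 50 counts and 2 FPKM in every WT library, whose median was 1.00-fold. The FPKM of *Os01g0647200* therefore varied more among WT libraries (20.2% of the mean) than its scaled count did (8.08%). The 2 fragments of *OsIRO2* in *Dap1* replicate 1 were also assigned a shorter length, with 14.0 scaled counts per FPKM, which is why 2 counts appear there as 0.15 FPKM.

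**Figure D2:**
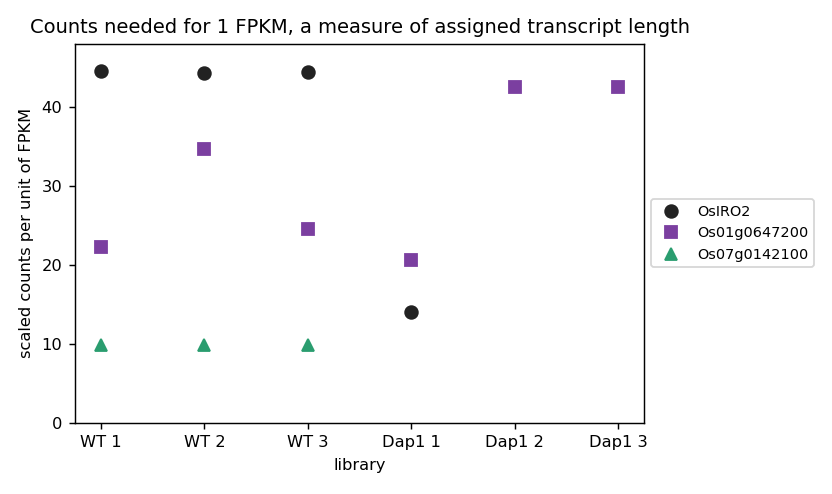
Scaled counts per unit of FPKM, which is proportional to the length assigned by the authors' pipeline, for each of the 3 loci in each library in which the FPKM was above 0. Across the WT libraries OsIRO2 and Os07g0142100 are level and Os01g0647200 lies between 22.3 and 34.7, and in Dap1, at few counts, Os01g0647200 lies between 20.7 and 42.6 and OsIRO2 at 14.0.

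The rows most like each locus were taken as those with the smallest distance in log2(scaled count + 1) over the 6 libraries, after centring on the WT mean, among the 379 rows with a mean WT count of at least 50. This is a description over 6 libraries of 2 groups, and the log2 scale with 1 added brings rows near 0 in *Dap1* together. The centred level of a row with 0 counts in *Dap1* depends there only on its WT level. Distances from such rows therefore largely reflect WT counts and do not tell which gene fell more. The 3 loci were also selected with their fall known, so closeness among them is no independent evidence of a link. *Os01g0647200* was among the 3 rows closest to *OsIRO2* (distance 1.79), and *OsIRO2* among the 3 closest to *Os07g0142100* (1.96). *OsIRO2* was not among the 3 closest to *Os01g0647200*, and *Os01g0647200* and *Os07g0142100* lay 2.88 apart. *Os07g0650100*, described as an Armadillo-like helical domain protein, was the closest to *OsIRO2* (1.43) and to *Os01g0647200* (1.15). Its WT counts were 65, 64 and 62, and its *Dap1* counts were all 0. A reconstructed transcript described as a RICESLEEPER 2-like zinc finger BED domain protein was the closest to *Os07g0142100* (0.76), with WT counts of 106, 88 and 98 and *Dap1* counts of 0. *Os08g0446750*, a hypothetical protein, and *OsMT2b*, a metallothionein, were the next closest to *Os01g0647200*, at 1.43 and 1.72.

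**Figure D3:**
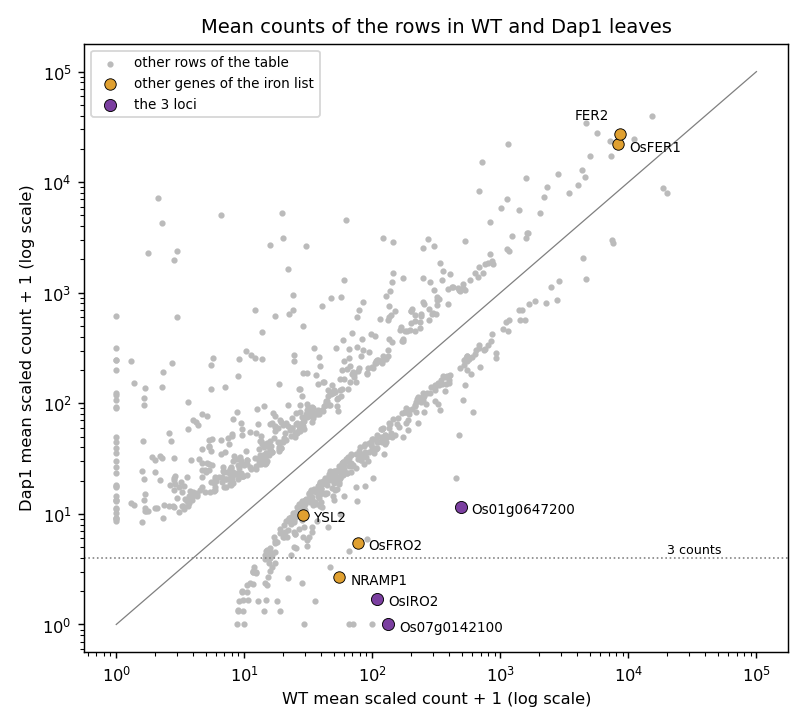
Mean scaled count plus 1 in Dap1 against WT on log scales for the 925 rows (grey), the 3 loci (purple) and the other 5 genes of the iron list in the table (orange), with the line of equal counts and a dotted line at 3 counts. The 3 loci lie far below the line of equal counts, with OsIRO2 and Os07g0142100 also below 3 counts, and the ferritin genes lie above it.

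To set *OsIRO2* beside other genes of iron handling, a list of 32 rice genes for iron regulation, chelation, transport and storage was used. The list was chosen with the calls of this table known. Besides *OsIRO2*, 5 of its genes had a row. For the other 26, no row was found by identifier or symbol among the genes that the authors called. Whether these were unchanged, changed too little or too variably to be called, or were too low cannot be told from called genes alone. In edgeR's test across the 925 rows, 3 of the 5 fell and 2 rose, where 41.7% of all rows were called lower and 56.9% higher. Their median log2 fold change was -1.67 against 1.15 over all rows, and with 5 genes of a list chosen in this way the counts are a description only. The 3 that fell act in iron uptake and transport, a class for which the list held 10 genes. The 2 that rose encode ferritin, and the list held 4 storage genes. No row was found for the rest of either class. *OsIRO2* was the only 1 of the 11 regulators with a row. None of the 7 genes for chelator synthesis and efflux, the step at which OsIRO2 is known to act, was found among the called genes.

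*NRAMP1* (*Os07g0258400*), a metal transporter that carries iron and cadmium in rice, fell to a few counts. Counts were 70, 39 and 55 in WT against 2, 2 and 1 in *Dap1*. This was at least 18.3-fold lower (log2 ratio -4.20 or below, edgeR adjusted p = 1.11e-10). *OsFRO2* (*Os04g0578600*), a member of the ferric-chelate reductase family, went from 93, 65 and 68 counts to 9, 3 and 1. The fitted log2 change was -4.10 (SE 0.38, edgeR adjusted p = 4.82e-10), and without *Dap1* replicate 1, the library with 9 counts, it was -5.22. *YSL2* (*Os02g0649900*), which transports iron and manganese bound to nicotianamine in the phloem, fell less, from 30, 26 and 26 counts to 15, 3 and 8. The fitted log2 change was -1.67 (SE 0.41, edgeR adjusted p = 6.00e-04), and it was -2.36 without *Dap1* replicate 1. With limma on log2(FPKM + 1), the difference of *YSL2* was -0.50 and was no longer called. For each of these transport genes, every WT library was above every *Dap1* library, as in 42.1% of all rows. The authors had already selected these rows as differing in the same libraries, so the adjusted p-values are no independent evidence.

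The ferritin genes moved the other way. *OsFER1* (*Os11g0106700*) rose from 362, 366 and 368 FPKM to 961, 984 and 968. The fitted log2 change was 1.41 (SE 0.021, edgeR adjusted p = 2.61e-26). *FER2* (*Os12g0106000*) rose from 399, 393 and 406 FPKM to 1252, 1249.6 and 1266, a fitted log2 change of 1.65 (SE 0.021, edgeR adjusted p = 7.21e-28). The rise of *OsFER1* was 0.96 with TMM factors and 0.56 with DESeq2's size factors computed over the listed rows, which lowered all rows by a median of 0.45 and 0.85, and that of *FER2* was 1.20 and 0.80. The direction was the same under each, but *OsFER1* then lay inside the threshold of 1, as did *FER2* with DESeq2's factors and *OsNRAMP6*, *OsISC5* and *Oslacc*, described next, with either set of factors. The ferritin genes are close paralogs between which fragments can be split, so their single values are uncertain. Their adjusted p-values also come from rows already selected in these libraries and are no independent evidence.

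Rows were also taken by their annotation in the table. A row entered if its description named ferritin, ferroportin, NRAMP or nicotianamine. It also entered if a GO term named iron transport, iron-nicotianamine, iron homeostasis, response to iron, sequestering of iron or ferroxidase. Of these 11 rows, 5 were called lower in *Dap1* and 6 higher, with a median log2 fold change of 1.27. These counts are close to the shares over all rows, 41.7% lower and 56.9% higher with a median of 1.15, so they do not set the iron rows apart. They include *OsIRO2*, *NRAMP1*, *YSL2* and the ferritin genes. Of the remaining 6 rows, *Os06g0560000*, a ferroportin family protein (metal exporters in animals and Arabidopsis), fell from 395, 333 and 389 counts to 129, 164 and 156. Its log2 fold change was -1.35 (standard error 0.10). *OsMTP8.1*, a manganese transporter, fell from 78.4 ± 1.41 to 35.8 ± 1.02 FPKM (SD, n = 3), a log2 fold change of -1.13 (standard error 0.039). *OsNRAMP6*, a metal transporter of the same family as *NRAMP1*, rose from 9.83 ± 0.346 to 25.5 ± 0.905 FPKM (SD, n = 3), a log2 fold change of 1.41 (standard error 0.058). The 2 members of the NRAMP family in the table thus changed in opposite directions.

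The other 3 annotated rows were higher in *Dap1*, with *Os02g0644200* and *Oslacc* at low counts. *Os02g0644200*, a DUF125 transmembrane protein annotated to sequestering of iron, went from 0, 1 and 1 counts to 15, 4 and 10, at least 3.18-fold higher. *OsISC5*, an iron-sulfur cluster assembly protein, went from 37, 61 and 27 counts to 108, 98 and 106. *Oslacc*, a laccase annotated with ferroxidase activity, went from 10, 19 and 5 counts to 32, 32 and 23, and its scaled counts overlapped between the groups. The log2 fold change of *Oslacc* was 1.30 (standard error 0.40), but it was 2.0 without WT replicate 2 and 0.93, inside the threshold, without WT replicate 3. Neither *Os02g0644200* (0.76) nor *Oslacc* (0.64) was called by limma on log2(FPKM + 1).

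**Figure D4:**
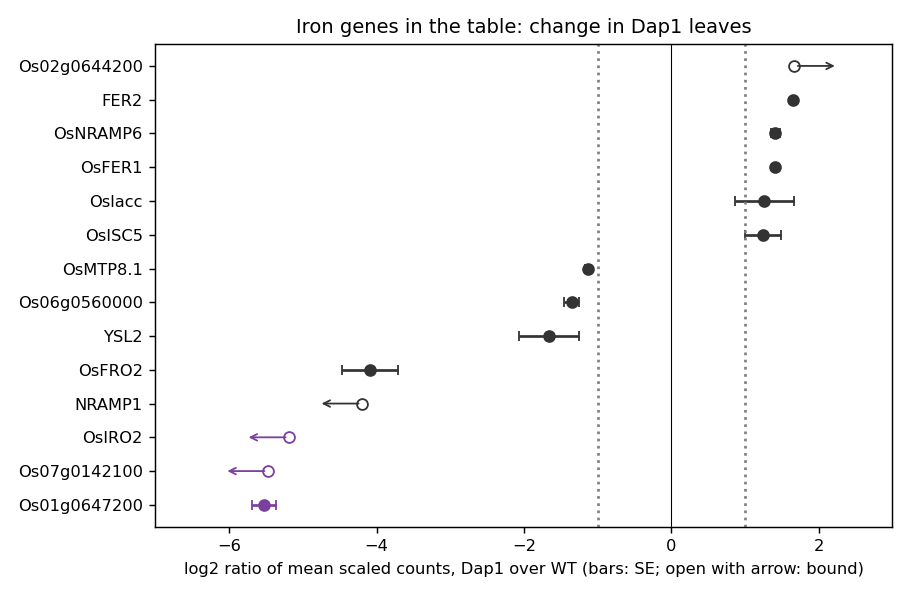
Log2 ratio of the mean scaled counts, Dap1 over WT, for the 3 loci (purple) and the 11 further rows from the iron list or annotated to iron (black), with edgeR's standard error as bars and dotted lines at -1 and 1. Open points with arrows are bounds against 3 counts. OsIRO2 and Os07g0142100 are bounds at -5.19 and -5.47, Os01g0647200 is a value at -5.53, NRAMP1 is a bound at -4.20, and both ferritin genes lie above 1.

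*OsIRO2* was also compared with the rows whose symbol or description names bHLH or helix-loop-helix. The description of *OsIRO2* itself does not, so other bHLH genes may have been missed. Of the 8 rows found, 5 were called lower and 3 higher, against 41.7% and 56.9% of all rows. The 5 that were lower had log2 fold changes between -1.48 (*OsbHLH038*, standard error 0.36) and -1.15 (*OsPIF14*, standard error 0.19), beside the bound of -5.19 for *OsIRO2*. *OsbHLH076*, with a WT count close to that of *OsIRO2*, went from 142, 99 and 111 counts to 37, 49 and 47. The 3 that rose had few counts in WT, at most 5 in a library. *OsbHLH006* had 17, 25 and 17 counts in *Dap1* against 5, 0 and 1 in WT. No difference in fold change between *OsIRO2* and another bHLH gene was tested, because *OsIRO2* was chosen from this contrast.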

How the data were processed

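RNA-seq of leaves was compared between 3 *Dap1* and 3 WT samples, with replicate numbers taken from the sample titles. Per the sources, the authors used Fastp for read filtering, Bowtie2 against rRNA, HISAT2 on the Nipponbare genome, StringTie for assembly and RSEM for quantification. Versions, build and strand setting are not given in the sources used here. For the 925 genes that the authors called, the deposited table gives raw counts and FPKM per library. It also holds the authors' mean FPKM, log2 fold change, p-value and FDR, which were not used. Whole-library depth is unknown.

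Relative library sizes were the median ratio of count to FPKM over 258 rows reaching 2 FPKM in all libraries. All 925 rows were fitted with edgeR 4.0.16 (glmQLFit, glmQLFTest) in R 4.3.3, without a filter, and p-values were adjusted by the Benjamini-Hochberg method over all rows. Standard errors (SE) were obtained from the fold change and the root of its F statistic. The fit was checked on simulated counts in which a minority of rows changed, a setting unlike this table, where all rows had been selected as differing. Alternatives were TMM and DESeq2 1.42.0 size factors, limma 3.58.1 on log2(FPKM + 1) and log2(FPKM + 0.1), the Wald test of DESeq2, a minimum mean count of 10, a replicate block and each library left out. Replicate pairs differed by more than sampling noise, so none was merged.

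The members and lists were chosen with earlier results of these data known. Genes named were the 3 loci, every iron row found, bHLH rows, and the 3 rows nearest to each locus. Of the table's identifiers, 0 matched the RefSeq gene table, so no coordinates or sequences are given.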

Additional observations from a re-analysis of the deposited data

How the results depend on the processing

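All differences of the 3 loci kept their direction under the alternatives run, but their size depended on the scale. For *OsIRO2*, *Os01g0647200* and *Os07g0142100* in this order, the log2 ratio was -5.64, -5.98 and -5.93 with TMM factors. It was -6.04, -6.38 and -6.32 with DESeq2's size factors. Both sets of factors were computed over rows selected for changing and shift all rows alike. In both, the values of *OsIRO2* and *Os07g0142100* are bounds against 3 counts, and only that of *Os01g0647200* is a ratio of means. On log2(FPKM + 1), which understates changes of low genes, the differences were -1.71, -3.85 and -3.84, and on log2(FPKM + 0.1) they were -4.21 for *OsIRO2* and -7.07 for *Os07g0142100*. Since *Os07g0142100* was not detected in *Dap1*, its differences on these scales are set by the added constant and its WT level. The ratio of mean FPKM gave -5.60 for *OsIRO2*. With each library left out, the values lay between -5.24 and -5.09, between -5.67 and -5.39, and between -5.55 and -5.36. The ranges of *OsIRO2* and *Os07g0142100* are again of bounds. Leaving out a *Dap1* library can move these bounds only through library sizes, so their narrow ranges do not show that the fall is stable.

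edgeR's fitted log2 fold changes, set beside the bounds after the data were seen, were -7.11 for *OsIRO2* and -10.05 for *Os07g0142100*. They depend on the prior count and are no bounds. Same-numbered WT and *Dap1* samples did not deviate together (correlations of -0.0067, -0.016 and -0.028 over 431 rows). Whether they shared a plot or a day is not stated. With the replicate block, the fitted values were -7.11, -5.52 and -10.05, and 912 rows were called, as without it.

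Across the table, 912 rows were called, 394 with limma on log2(FPKM + 1), and between 858 and 882 with each library left out. TMM factors gave 342 higher and 393 lower rows, and DESeq2's factors 251 and 393, against 526 and 386. Of the 6 iron list genes with a row, 6 were called, 5 with TMM factors, 4 with DESeq2's factors and 5 with limma on log2(FPKM + 1), where *YSL2* was lost. Levels under 3 counts in *Dap1* cannot be resolved at this depth.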
